A study of Sus scrofa with 24 samples.

Results

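The nuclear genes for the machinery of oxidative phosphorylation were followed across the colon and ileum of sows. The members were defined by gene name, with earlier results of these data known, as every row whose symbol began with NDUFA, NDUFB, NDUFC, NDUFS or NDUFV, with UQCR, with COX and a number from 4 to 8, or with ATP5, and the rows SDHA, SDHB, SDHC and SDHD. This gave 78 of the 20674 genes in the table; CYC1 was not analysed here. Grouped by name, they comprise 39 genes of complex I, 8 assembly factors of complex I (the NDUFAF genes), 4 of complex II, 2 of complex III, 8 of complex IV and 17 of complex V, the ATP synthase. The names ATP5S and ATP5SL are older symbols of DMAC2L and DMAC2, which are not subunits of the ATP synthase in current naming, so 68 of the 78 members are subunits.

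Poly(A) RNA was sequenced from 8 groups of 3 libraries: colon and ileum, each from sows on the diets HN, LN, HF and LF. HN sows ate 7.46% crude fibre with 0.05% N-carbamylglutamate (NCG), LN sows 3.73% crude fibre with 0.05% NCG, HF sows 7.46% crude fibre without NCG, and LF sows 3.73% crude fibre without NCG. All groups were gestating females that received their diet from breeding through a gestation of 114 days, in a trial of 100 sows per diet, and NCG is a stable compound that can stand in for N-acetylglutamate, which switches on the first enzyme of the urea cycle. The labels name no breed or parity, do not say whether each library of a group stems from its own sow, and do not link colon and ileum libraries of a sow, so p-values measure the spread between libraries, which may be technical in part.

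As background, the respiratory chain of the inner mitochondrial membrane passes electrons from NADH and succinate to oxygen and pumps protons, and the ATP synthase uses the proton gradient to make ATP. Complex I oxidises NADH, complex II oxidises succinate, complex III passes electrons from ubiquinol to cytochrome c, and complex IV reduces oxygen. All subunits of complex II and most subunits of the others are encoded in the nucleus, while a small set of hydrophobic core subunits of complexes I, III, IV and V is encoded in mitochondrial DNA. In the gut, colonocytes oxidise butyrate and ileal enterocytes oxidise glutamine as fuel, and smooth muscle, endothelium and immune cells of the wall carry mitochondria as well. Several subunits of complex IV exist as isoforms that differ between heart or muscle and other tissues.

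Libraries held 14843272 to 18575695 counts in colon and 11951729 to 19896941 in ileum, of which the members together held 0.533% to 1.17%. Tissue composition differed between libraries. The mean log2 CPM (counts scaled to library size) of 10 epithelial markers was 4.4 in colon HN 1 and 3.3 in colon LF 2, against 7.5 to 9.7 in the other 10 colon libraries, and the mean of 10 smooth muscle markers was 12.4 and 12.8 in these libraries. In ileum, HN 2 had the lowest epithelial mean (6.6) and the highest mean of lymphocyte markers (7.2), LN 3 had the highest mean of adipocyte markers (9.0) and LF 3 the highest smooth muscle mean (11.5). Epithelial markers were present in all 24 libraries, and the ileal enterocyte markers summed to 53.1 to 321 CPM in colon and 1893 to 16101 CPM in ileum, without overlap. FABP6, the ileal bile acid binding protein, exceeded 500 CPM in only 3 of the 12 ileum libraries (HN 2, HF 2 and LF 1) and was under 40 CPM in the other 9. In whole tissue, fewer cells of a type and less RNA per cell cannot be told apart.

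Levels are given as normalised FPKM, that is counts scaled to the deposited gene length and to library size, with 1 TMM scaling over all 24 libraries. They can be compared between libraries, and between genes only as far as the deposited lengths match the transcripts that were sequenced. The members were abundant: 30 of 78 averaged above 100 normalised FPKM over the 24 libraries and 9 averaged below 10. Their genes are short, with a median deposited length of 871 bases against 3051 bases for all 20674 genes, and 48 of them are under 1000 bases. The library protocol selected cDNA of about 450 bp, and 6 members are shorter than that. The spread between libraries was wide for all of them: the highest library exceeded the lowest by a median of 2.996-fold, from 1.58-fold for the assembly factor NDUFAF1 to 9.54-fold for COX7A1, and 9 members spanned more than 4-fold. Of the 77 members tested, 51 had their lowest level in ileum HN 2 and 7 in colon HN 1.

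**Figure D1:**
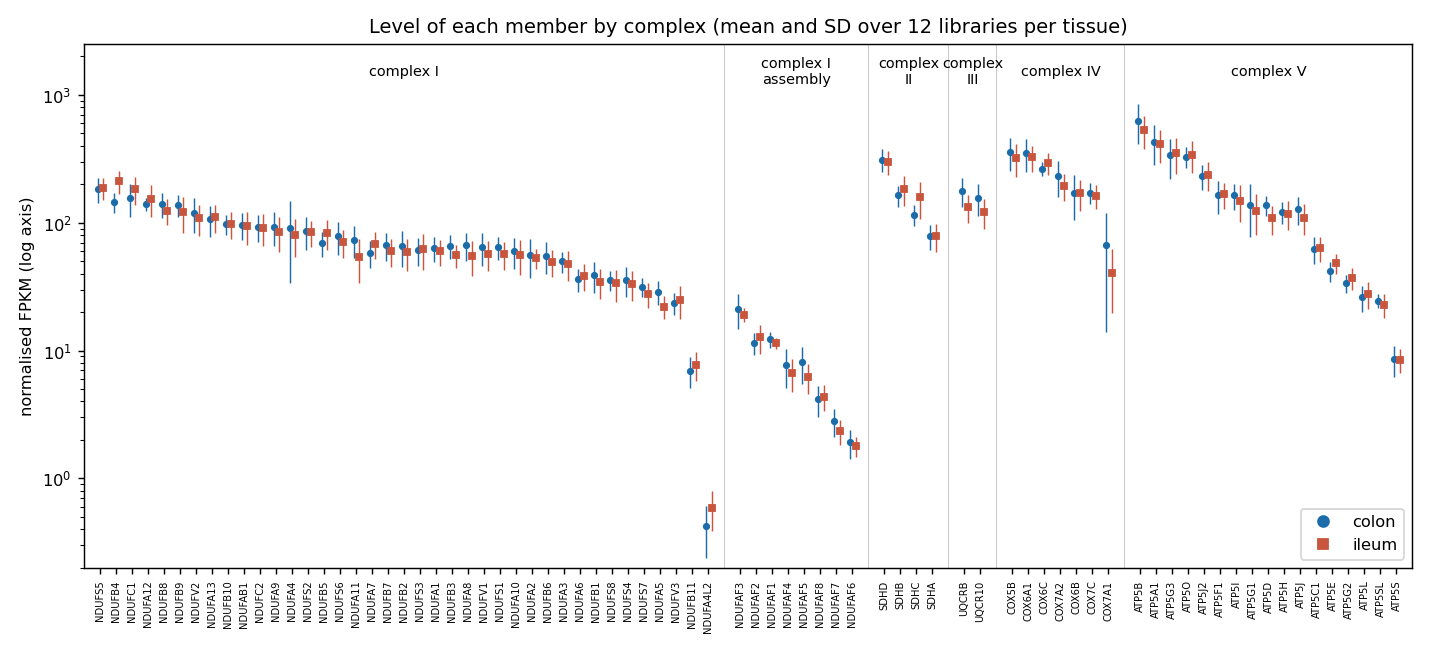
Level of each of the 77 tested members in normalised FPKM on a log axis, grouped by complex and ordered by mean level, with colon (circles) and ileum (squares) as mean and SD over 12 libraries. ATP5B stands highest and NDUFA4L2 lowest, the assembly factors lie lower, and colon and ileum points lie close together for nearly all members.

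The alpha and beta subunits of the ATP synthase stood highest. ATP5B, the beta subunit now named ATP5F1B, which carries the catalytic sites, averaged 626 ± 216 normalised FPKM in colon and 529.8 ± 153 in ileum (SD, n = 12 libraries each). By group its level was 544 ± 267 in HN, 529.96 ± 93.4 in LN, 842 ± 174 in HF and 587 ± 221 in LF colon, and 432 ± 123 in HN, 443 ± 184 in LN, 668 ± 151 in HF and 576 ± 6.75 in LF ileum (SD, n = 3 in this and all later group means). ATP5A1, the alpha subunit (ATP5F1A), was 362 ± 160.4 in HN, 383 ± 40.1 in LN, 583 ± 162 in HF and 396 ± 143 in LF colon, and 345 ± 100.4 in HN, 376 ± 168 in LN, 494 ± 139 in HF and 428 ± 47.8 in LF ileum. ATP5A1 was highest in HF colon and lowest in HN ileum. Within each tissue both were lower on average in the groups with NCG than in those without, and the SDs of the groups were of the size of these differences.

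The ring of c subunits through which protons pass is encoded by several genes for an identical mature protein, here ATP5G1, ATP5G2 and ATP5G3 (ATP5MC1, ATP5MC2 and ATP5MC3). ATP5G3 was 259.7 ± 107 in HN, 292 ± 64.2 in LN, 437 ± 133 in HF and 363 ± 116 in LF colon, and 271 ± 101 in HN, 295 ± 119.7 in LN, 432 ± 114 in HF and 405 ± 37.9 in LF ileum. ATP5G1 was 109 ± 71.3 in HN, 115 ± 30.4 in LN, 195 ± 45.2 in HF and 136 ± 77.3 in LF colon, and 96.3 ± 47.4 in HN, 105 ± 58.6 in LN, 147 ± 36.5 in HF and 145 ± 16.5 in LF ileum. ATP5G1 was highest in HF colon and lowest in HN ileum. ATP5G2, whose deposited gene is the longest of these, was 33.3 ± 6.202 in HN, 29.2 ± 3.19 in LN, 38.2 ± 1.24 in HF and 33.8 ± 7.14 in LF colon, and 33.5 ± 6.93 in HN, 32.2 ± 6.41 in LN, 40.8 ± 6.12 in HF and 42.5 ± 6.42 in LF ileum. The order ATP5G3, ATP5G1, ATP5G2 held for the mean over all 24 libraries. These levels are divided by deposited lengths of 697, 893 and 4478 bases in that order, so the rank depends on these lengths as well as on counts. ATP5G1 spanned 5.41-fold between its lowest library (ileum HN 2) and its highest (colon LF 3), against 1.95-fold for ATP5G2. At the low end of the ATP5 names stood ATP5S at 8.55 and ATP5SL at 23.6 over the 24 libraries, both of them no subunits.

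In complex IV, COX5B and COX6A1, structural subunits around the catalytic core, were the highest members, with means over 24 libraries of 339.6 and 338. COX6A1, the form of subunit 6A found outside heart and skeletal muscle, was 296 ± 133 in HN, 314 ± 14.9 in LN, 449.6 ± 100.1 in HF and 342 ± 71.1 in LF colon, and 248 ± 77.7 in HN, 321 ± 63.6 in LN, 382 ± 72.2 in HF and 351 ± 8.69 in LF ileum. COX6A1 had its smallest SDs in LN colon and LF ileum. COX6B (COX6B1), which joins the monomers of the complex into a dimer, was 136 ± 85.9 in HN, 153 ± 24.5 in LN, 244 ± 58.1 in HF and 151 ± 47.1 in LF colon, and 137 ± 48.8 in HN, 159 ± 49.4 in LN, 211 ± 49.8 in HF and 173 ± 12.04 in LF ileum. COX7A2, the widely expressed form of subunit 7A, was 193 ± 72.1 in HN, 196 ± 49.8 in LN, 307 ± 74.1 in HF and 230.1 ± 53.5 in LF colon, and 149 ± 37.96 in HN, 178 ± 60.5 in LN, 229 ± 17.8 in HF and 223 ± 17.1 in LF ileum. COX7A2 was highest in HF colon and lowest in HN ileum. The lowest were COX7A1, the muscle form of subunit 7A, described with the isoforms, and COX8H, the heart form of subunit 8, with 0 to 2 counts per library and a median of 0, which was barely detected and did not enter any test.

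Complex II showed uneven levels among subunits that occur once each in the assembled complex. SDHD, a membrane anchor, was 271 ± 84.98 in HN, 283 ± 38.3 in LN, 379.8 ± 38.5 in HF and 314 ± 48.1 in LF colon, and 244 ± 88.6 in HN, 287 ± 52.9 in LN, 343 ± 47.6 in HF and 321 ± 17.96 in LF ileum. SDHB, the iron-sulphur subunit, was 151 ± 39.7 in HN, 159 ± 9.89 in LN, 197 ± 26.1 in HF and 151 ± 24.7 in LF colon, and 149 ± 71.4 in HN, 190.1 ± 35.4 in LN, 208 ± 59.5 in HF and 185 ± 24.1 in LF ileum. SDHB was highest in HF ileum and lowest in HN ileum. The anchor SDHD stood above SDHB in every group. SDHC, the other anchor, was 108 ± 32.7 in HN, 104 ± 10.8 in LN, 137 ± 17.1 in HF and 115 ± 16.4 in LF colon, and 120.4 ± 57.4 in HN, 176 ± 34.5 in LN, 184 ± 64.7 in HF and 152 ± 39.7 in LF ileum. SDHC was highest in HF ileum and lowest in LN colon. SDHA, the flavoprotein that oxidises succinate, was the lowest, with 70.7 ± 24.2 in HN, 71.2 ± 3.41 in LN, 97.3 ± 10.1 in HF and 73.7 ± 14.6 in LF colon, and 62.02 ± 27.5 in HN, 78.4 ± 13.7 in LN, 91.9 ± 19.6 in HF and 83.1 ± 7.57 in LF ileum. The order SDHD, SDHB, SDHC, SDHA held in the mean of each tissue, and SDHC and SDHB lay within each other's spread in ileum.

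Among tested members grouped by name, complex I had the widest ratio of highest to lowest level, set by NDUFA4L2 at the low end. Its highest members were the accessory subunits NDUFS5 (185 over 24 libraries) and NDUFB4 (178), and its lowest were NDUFB11 (7.36), an accessory subunit of the membrane arm on chromosome X, and NDUFA4L2 (0.508). The 7 subunits of the catalytic core lay in between. NDUFV1, which binds the flavin that accepts electrons from NADH, was 58.2 ± 24.5 in HN, 57.9 ± 6.51 in LN, 81.3 ± 14.8 in HF and 58.96 ± 20.2 in LF colon, and 48.1 ± 18.7 in HN, 53.4 ± 17.4 in LN, 67.4 ± 15.5 in HF and 59.5 ± 8.36 in LF ileum. NDUFV1 was highest in HF colon and lowest in HN ileum. NDUFV2, the iron-sulphur partner of NDUFV1, was 97.3 ± 34.4 in HN, 103 ± 9.34 in LN, 155 ± 45.7 in HF and 124 ± 30.97 in LF colon, and 85.5 ± 22.3 in HN, 96.9 ± 29.8 in LN, 128 ± 34.7 in HF and 122 ± 17.3 in LF ileum. NDUFV2 was highest in HF colon and lowest in HN ileum. NDUFS1, the core subunit that holds several iron-sulphur clusters, was 55.4 ± 8.004 in HN, 58.5 ± 7.55 in LN, 78.4 ± 14.3 in HF and 64.05 ± 13.4 in LF colon, and 47.5 ± 13.4 in HN, 57.7 ± 17.98 in LN, 63.7 ± 18.3 in HF and 57.7 ± 7.16 in LF ileum. In HN and LN colon each of these 3 subunits averaged below its HF and LF colon means.

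Among accessory subunits, NDUFA2 was 49.2 ± 17.5 in HN, 48.5 ± 18.9 in LN, 75.3 ± 12.9 in HF and 50.6 ± 20.5 in LF colon, and 45.04 ± 11.3 in HN, 47.1 ± 7.99 in LN, 60.4 ± 5.96 in HF and 57.8 ± 2.87 in LF ileum. NDUFA2 was highest in HF colon and lowest in HN ileum. NDUFB10 was 86.2 ± 17.2 in HN, 85.04 ± 11.5 in LN, 104 ± 14.4 in HF and 116 ± 12.9 in LF colon, and 79.03 ± 20.5 in HN, 86.8 ± 15.7 in LN, 111 ± 29.2 in HF and 114 ± 10.4 in LF ileum. NDUFB10 was highest in LF colon and lowest in HN ileum. NDUFB10 overlaps RPS2, a highly expressed ribosomal protein gene on the opposite strand, and the strand setting used for counting is not given in the sources used here. In all, 17 members overlap another annotated gene, in each case on the opposite strand, among them ATP5J with GABPA, NDUFA7 with RPS28 and NDUFB1 with CPSF2, so reads of the partners may not be separable. The assembly factors, which help to build complex I and leave the finished enzyme, were low, from 1.85 for NDUFAF6 and 2.58 for NDUFAF7 to 12.1 for NDUFAF2 and 20.2 for NDUFAF3. In complex III, UQCRB, which lies next to the ubiquinone site, averaged 156 and the small subunit UQCR10 averaged 139.

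All values by complex rest on grouping by name, so complex I holds NDUFA4 and NDUFA4L2, and complex V holds ATP5S and ATP5SL. The level of a complex was taken as the geometric mean of its members in a library. For the 39 members of complex I it was 44.5, 46.3 and 60.9 normalised FPKM in HN colon, 52.9, 41.8 and 50.9 in LN colon, 72.8, 53.5 and 71.4 in HF colon and 60.3, 58.1 and 74.2 in LF colon. In ileum it was 54.7, 30.4 and 50.99 in HN, 64.9, 47.3 and 42.9 in LN, 71.5, 46.5 and 72.3 in HF and 56.3, 65.9 and 66.5 in LF libraries. The lowest library of all was ileum HN 2, and groups with and without NCG overlapped in each tissue. For the 17 members of complex V it was 72.5, 86.3 and 113 in HN colon, 100.3, 77.8 and 95.3 in LN colon, 135, 101 and 138 in HF colon and 103, 98.3 and 137 in LF colon. In ileum it was 102, 55.7 and 92.3 in HN, 119, 85.6 and 74.4 in LN, 126, 88.1 and 135 in HF and 106, 121 and 119.8 in LF libraries. Again ileum HN 2 was the lowest, and the highest library was colon HF 3 in colon and ileum HF 3 in ileum.

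For the 4 members of complex II the geometric mean ran from 89.1 to 191 in colon (median 141) and from 69.5 to 221 in ileum (median 161). For the pair of complex III it ran from 114 to 230.1 in colon (median 152) and from 74.5 to 173 in ileum (median 131). For the 7 tested members of complex IV it ran from 139 to 243 in colon (median 200.2) and from 94.4 to 219.5 in ileum (median 187). The complexes thus shared their lowest ileum library, HN 2, while the 8 assembly factors, with 4.87 to 8.75 in colon and 4.904 to 7.41 in ileum, had theirs in ileum LN 2.

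**Figure D2:**
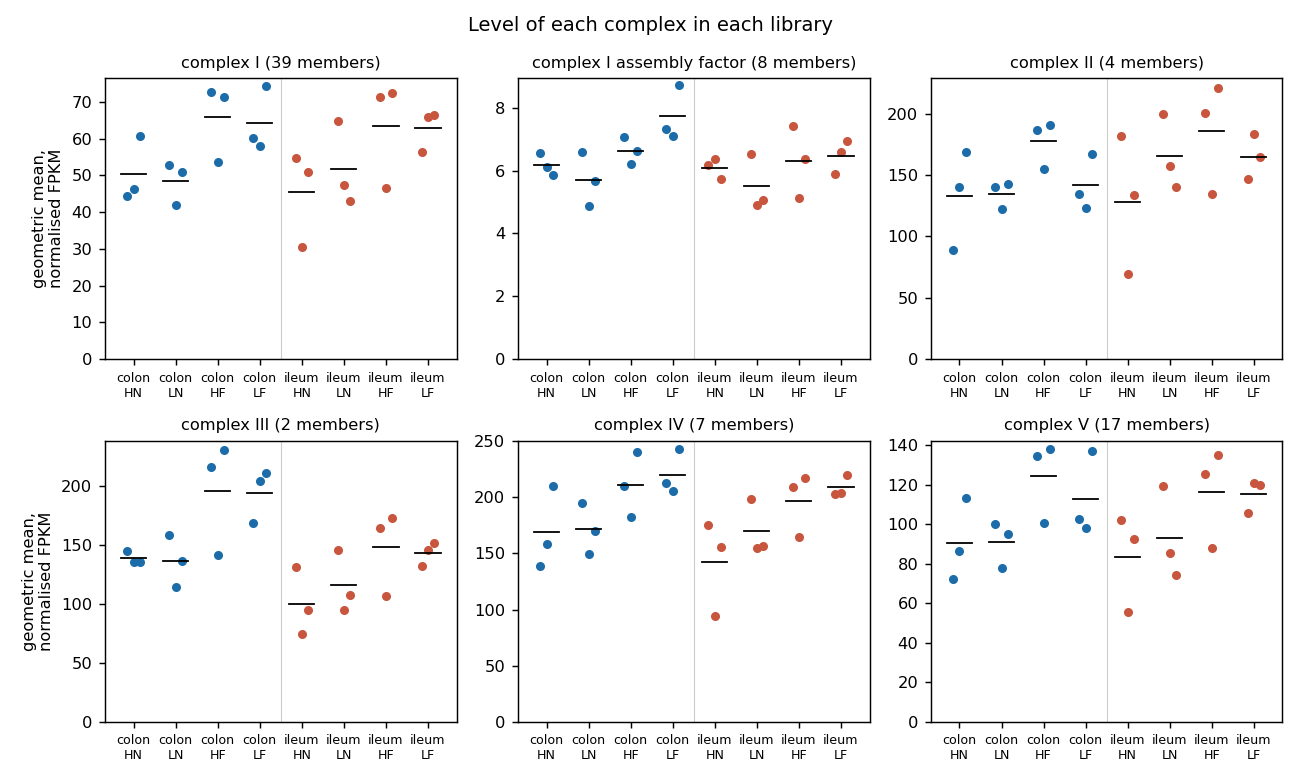
Geometric mean of the members of each complex in every library, in normalised FPKM from 0, for the 4 colon groups (left) and the 4 ileum groups (right), with 1 point per library and a black bar for the group mean. In complexes I, III, IV and V the HN and LN bars lie below the HF and LF bars in both tissues, while the points of single libraries overlap.

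Colon was compared with ileum over the 4 diets, 12 libraries against 12, to see whether the respiratory chain genes differ between the gut segments. Few did: 4 of 77 members passed an adjusted p of 0.05 (edgeR quasi-likelihood test, Benjamini-Hochberg over 15675 genes), 3 higher and 1 lower in colon, while 28.4% of all genes tested passed (higher 12.5%, lower 15.9%). DESeq2 called 8 members and 34.2% of all genes, and limma voom 4 members and 24.3% of all genes (shares for DESeq2 are of the genes that it gave an adjusted p). An unadjusted p under 0.05 was reached by 12 members and 40.1% of all genes. The median log2 difference of the members was 0.08, against -0.03 for all genes, and -0.015 without the 3 FABP6-high ileum libraries, 0.0044 without ileum HN 2 and LN 3, 0.19 with the trend with gene length removed and 0.029 to 0.13 when 1 library was left out. By complex it was 0.09 for complex I, 0.12 for the assembly factors, -0.08 for complex II, 0.39 for complex III, 0.11 for complex IV and 0.02 for complex V. The called members belong to complex I (NDUFB4, NDUFA11, NDUFA5) and complex III (UQCRB), and no member of complexes II, IV or V and no assembly factor passed.

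NDUFB4 (chromosome 13, 139724145 to 139730492, Sscrofa11.1), an accessory subunit at the membrane arm of complex I, had a normalised FPKM of 109 to 189.7 (median 143) in colon and 107 to 284 (median 215) in ileum. Most colon libraries lay below the ileum libraries, and the highest colon library exceeded only 2 ileum libraries, one of them HN 2. NDUFB4 fell by 0.55 on the log2 scale in colon (SE 0.10, adjusted p = 0.000629). By diet the log2 difference was -0.36 in HN, -0.81 in LN, -0.49 in HF and -0.56 in LF sows. In LN sows it was the only member called (-0.81 ± 0.21 (SE, adjusted p = 0.0306), 3 libraries against 3, where 4.31% of all genes passed), with 121, 109 and 125 in LN colon and 217, 205 and 198 in LN ileum. That call was lost in each of the 6 fits that left out an LN library (adjusted p up to 0.151 without LN 2 of colon). In HN, HF and LF sows no member was called by edgeR, where 3, 2 and 4 members had an unadjusted p under 0.05 (21.4%, 14.4% and 21.9% of all genes). In these sows 2.89%, 3.04% and 2.16% of all genes passed in edgeR. DESeq2 called 0, 0 and 0 members and 9.46%, 6.77% and 8.22% of all genes, and voom called 0, 0 and 0 members and 1.61%, 2.28% and 1.3% of all genes.

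UQCRB (chromosome 4, 40403272 to 40409080), the subunit at the ubiquinone site of complex III, had a normalised FPKM of 129 to 272 (median 169.9) in colon and 78.03 to 186 (median 141) in ileum and rose by 0.42 in colon (SE 0.14, adjusted p = 0.0264). NDUFA11 (chromosome 2, 73131029 to 73137921), an accessory subunit of the membrane arm of complex I, had 44.9 to 108 (median 70.7) in colon and 20.4 to 93.2 (median 51.9) in ileum and rose by 0.46 (SE 0.16, adjusted p = 0.0364). NDUFA5 (chromosome 18, 23881872 to 23896699), an accessory subunit of the matrix arm, had 19.7 to 40.1 (median 30.1) in colon and 15.6 to 30.5 (median 21.3) in ileum and rose by 0.37 (SE 0.13, adjusted p = 0.0364). For each of the 3 genes the colon and ileum libraries overlapped and the lowest library was an HN ileum library. The 3 genes lost the call with smooth muscle and epithelial marker means as covariates (adjusted p = 0.195, 0.0955 and 0.228 for UQCRB, NDUFA11 and NDUFA5), without the FABP6-high ileum libraries (0.105, 0.116 and 0.135 in the same order), and without colon HN 1 and LF 2 (0.0782, 0.0636 and 0.103), and NDUFB4 kept it in each of these 3 settings. UQCRB also lost it without colon HF 3 (adjusted p = 0.0525), without colon LN 1 (0.0529) and without ileum LN 2 (0.05295). NDUFA11 lost it without any 1 of colon HN 1, HN 3, LN 1, HF 1, HF 3, LF 2 and LF 3 and ileum LN 2, LN 3, HF 2, HF 3, LF 1 and LF 2 (adjusted p up to 0.0735). NDUFA5 lost it without any 1 of colon HN 1, LN 1, HF 1, HF 3 and LF 2 and ileum HN 2, HN 3, LN 2, LN 3, HF 2, LF 1 and LF 2 (adjusted p up to 0.08104).

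The next members by p-value did not pass. UQCR10 of complex III had 0.35 ± 0.13 (SE, adjusted p = 0.0542), ATP5D, the delta subunit of the ATP synthase (ATP5F1D), had 0.35 ± 0.13 (SE, adjusted p = 0.0545), and SDHC had -0.44 ± 0.17 (SE, adjusted p = 0.0603). The normalised FPKM of SDHC was 73.1 to 150.3 (median 112) in colon and 57.4 to 227 (median 163) in ileum, so the groups overlapped. SDHC was called, lower in colon, without ileum HN 2 (adjusted p = 0.0104), as it was without any 1 of colon HN 3, ileum LN 3 and ileum HF 2, and NDUFB5 was called, lower in colon, without ileum HN 2 (0.0241) or ileum HF 2 (0.0313). The smooth muscle markers summed to 1508 to 111502 CPM in colon and 1113 to 47925 CPM in ileum, with 9 of 10 called higher in colon, and the lymphocyte markers summed to 22.5 to 542 CPM in colon and 139.8 to 1534 CPM in ileum, with 4 of 10 called lower in colon. Their part in the differences between tissues is addressed only by the fit with smooth muscle and epithelial means, in which 2 members and 19.3% of all genes were called, and was not tested for lymphocytes. When the trend of the differences with gene length was removed, 24 of 77 members were called, 22 higher and 2 lower, while 29.3% of all genes were called in that fit (higher 12.8%, lower 16.6%). Short genes as a class were lower in colon: genes of 500 to 1000 bases had a median of -0.13 and the 38 members of that length 0.06.

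NCG was compared with no NCG within each tissue, averaged over the fibre levels, 6 libraries against 6. In ileum none of the 77 members passed (edgeR; 19 had an unadjusted p under 0.05, DESeq2 called 5 and limma voom 1), while 5.85% of 15103 genes passed (higher 5.42%, lower 0.43%). DESeq2 called 12.1% of all genes and voom 5.1%, and 21.5% of all genes had an unadjusted p under 0.05 in either direction. The members' differences lay mostly on one side: 74 of 77 had a log2 difference below 0, as did 55.8% of all genes, and the members' median was -0.40, against -0.07 for all genes. All 19 members with an unadjusted p under 0.05 lay below 0, and 9% of all genes did so with such a p. The median was -0.45 for complex I, -0.19 for the assembly factors, -0.30 for complex II, -0.45 for complex III, -0.40 for complex IV and -0.42 for complex V.

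NDUFB1 (chromosome 7, 113652772 to 113659937), a small accessory subunit of the membrane arm of complex I, had the smallest p. Its level was 30.7, 17.96 and 30.1 in HN, 31.7, 23.7 and 29.4 in LN, 37.5, 34.96 and 38.7 in HF and 48.8, 47.2 and 43.98 in LF ileum. All 6 libraries with NCG lay below all 6 without, which held for 1 of 77 members and 1.19% of all genes. The log2 difference was -0.63 ± 0.17 (SE, adjusted p = 0.0555), and DESeq2 (0.00293) and voom (0.04401) put the adjusted p under 0.05. NDUFA6 (chromosome 5, 6562074 to 6567321), an accessory subunit of the matrix arm, had a normalised FPKM of 23.7 to 38.6 (median 31.3) with NCG and 34.5 to 52.2 (median 47.4) without NCG and a log2 difference of -0.56 ± 0.17 (SE, adjusted p = 0.0845). ATP5I (chromosome 8, 112092 to 113526), subunit e of the ATP synthase (ATP5ME), which helps synthase dimers form, had 64.6 to 163 (median 114) with NCG and 138 to 210.3 (median 183) without NCG and -0.72 ± 0.23 (SE, adjusted p = 0.112). For NDUFA6 and ATP5I the libraries with and without NCG overlapped.

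Within complex I the largest log2 difference was that of NDUFA11, at -0.77 ± 0.27 (SE, adjusted p = 0.138), and among the core subunits the values were -0.35 for NDUFV1, -0.48 for NDUFV2 and -0.24 for NDUFS1. The 4 subunits of complex II had -0.35 (SDHA), -0.25 (SDHB), -0.23 (SDHC) and -0.35 (SDHD). In complex IV, COX7A2 had -0.50 ± 0.19 (SE, adjusted p = 0.157), and COX6A1 and COX6B had -0.40 and -0.40. The alpha and beta subunits ATP5A1 and ATP5B had -0.38 and -0.53, and the c-ring genes ATP5G1, ATP5G2 and ATP5G3 had -0.57, -0.37 and -0.59. Only 3 members had a value above 0, none of them called: NDUFAF7, a methyltransferase that acts in complex I assembly (0.29), NDUFA4L2 (0.28) and ATP5S (0.19). NDUFS4 and NDUFA5 (-0.10 and -0.10) lay closest to 0 among those below it in the complexes, and the assembly factor NDUFAF1 (-0.09) closer still.

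The members' median in this comparison varied with the libraries and covariates in the fit. Without ileum HN 2 and LN 3, the members' median was -0.22 and 72 of 77 lay below 0. With smooth muscle and epithelial marker means as covariates it was -0.15 with 63 below 0, and it was -0.18 with 70 below 0 once the trend with gene length had been taken out. The smooth muscle markers summed to 1113 to 9986 CPM with NCG and 1522 to 47925 CPM without NCG, with none of 10 called (edgeR; 1 with an unadjusted p under 0.05), the adipocyte markers to 27.8 to 6044 CPM with NCG and 47.7 to 191 CPM without NCG, with none of 6 tested called (edgeR; 3 with an unadjusted p under 0.05), and the epithelial markers to 1406 to 8280.4 CPM with NCG and 4036 to 9113 CPM without NCG, with none of 10 called (edgeR; 0 with an unadjusted p under 0.05). Beyond leaving out LN 3, the part of adipocytes was not tested. ATP5I was called without ileum LN 1 (adjusted p = 0.0486).

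In colon none of the 77 members passed (edgeR; 33 had an unadjusted p under 0.05, DESeq2 called 12 and limma voom 0), and none of the 15075 genes tested passed, 0%. DESeq2 called 3.3% of all genes and voom 0%, and 12.4% of all genes had an unadjusted p under 0.05 in either direction. All 33 members with an unadjusted p under 0.05 lay below 0 with NCG, as did 4.73% of all genes with such a p. In all 73 of 77 members lay below 0, against 43.3% of all genes, with a median of -0.36 against 0.06. The medians by complex were -0.36 for complex I, -0.30 for the assembly factors, -0.24 for complex II, -0.49 for complex III, -0.35 for complex IV and -0.38 for complex V. By complex, 21 of 39 in complex I, 2 of 2 in complex III, 7 of 17 in complex V, 2 of 8 assembly factors, 1 of 7 in complex IV and 0 of 4 in complex II had an unadjusted p under 0.05. The share of all genes with such a p was 12.4%.

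NDUFB5 (chromosome 13, 117656411 to 117671515), an accessory subunit of the membrane arm, had 58.1, 60.1 and 65.9 normalised FPKM in HN, 56.3, 41.3 and 55.6 in LN, 79.1, 68.6 and 81.4 in HF and 83.9, 84.8 and 92.01 in LF colon. All 6 libraries with NCG lay below all 6 without, as for NDUFA1 and UQCR10, 3 of 77 members, while 0.517% of all genes did so. The log2 difference of NDUFB5 was -0.53 ± 0.11 (SE, adjusted p = 0.191). NDUFA1 (chromosome X, 98219717 to 98223873), an accessory subunit encoded on chromosome X, had 41.4 to 61.7 (median 52.2) with NCG and 63.8 to 90.4 (median 70.8) without NCG and -0.47 ± 0.12 (SE, adjusted p = 0.232). UQCR10 (chromosome 14, 46783340 to 46786140) had 93.4 to 146 (median 128) with NCG and 147 to 235 (median 187) without NCG and -0.58 ± 0.16 (SE, adjusted p = 0.255). These 3 genes lay apart by group without reaching the adjusted threshold of edgeR, and DESeq2 gave adjusted p-values of 4.17e-05 for NDUFB5, 0.0105 for NDUFA1 and 0.0245 for UQCR10.

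The other members with the smallest p were NDUFAB1 and ATP5J. NDUFAB1 (chromosome 3, 22619458 to 22631575), the mitochondrial acyl carrier protein that is also a complex I subunit, had a normalised FPKM of 65.8 to 98.3 (median 76.6) with NCG and 91.7 to 134 (median 114) without NCG, and its log2 difference was -0.55 ± 0.13 (SE, adjusted p = 0.218). ATP5J (chromosome 13, 189281429 to 189290234), coupling factor 6 of the ATP synthase stalk (ATP5PF), had 78.8 to 123 (median 106) with NCG and 115 to 175 (median 157) without NCG and -0.57 ± 0.14 (SE, adjusted p = 0.218). In both genes the highest library with NCG exceeded the lowest without. ATP5J overlaps GABPA on the opposite strand, and GABPA itself had a log2 difference of 0.65 ± 0.29 (SE, adjusted p = 0.4002) in colon.

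Of the core subunits of complex I, NDUFV1 had -0.24, NDUFV2 -0.46 and NDUFS1 -0.30 in colon. SDHA, SDHB, SDHC and SDHD had -0.24, -0.14, -0.24 and -0.31. COX7A2, COX6A1 and COX6B had -0.44, -0.35 and -0.40, none with an unadjusted p under 0.05. ATP5A1 and ATP5B had -0.36 and -0.38. The members above 0 were NDUFA4L2 (0.48), COX7A1 (0.14), NDUFAF7 (0.09) and NDUFAF2 (0.08), so NDUFA4L2 and NDUFAF7 lay above 0 in both tissues, without a call in either.

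With marker means as covariates 17 members were called in colon, all lower with NCG, at a median of -0.37, and 9.68% of all genes were called in that fit. Without colon HN 1 and LF 2 no member was called, the median was -0.35 and 75 of 77 lay below 0. Taking out the trend with gene length gave a median of -0.13, 68 members below 0 and 6 that had an unadjusted p under 0.05. The smooth muscle markers summed to 1508 to 103717 CPM with NCG and 1737 to 111502 CPM without NCG and the epithelial markers to 329 to 12740.00 CPM with NCG and 154 to 14572 CPM without NCG, with none of 10 called in either list (edgeR; 1 and 0 with an unadjusted p under 0.05). The NCG difference in colon minus that in ileum was called for no member (edgeR; 0 had an unadjusted p under 0.05, DESeq2 called 0 and limma voom 0), against 2.99% of all genes with an unadjusted p under 0.05 and none called (DESeq2 0.0639%, voom 0%), and the members' median of this difference was -0.0041, or -0.12 to 0.1 when 1 library was left out.

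**Figure D3:**
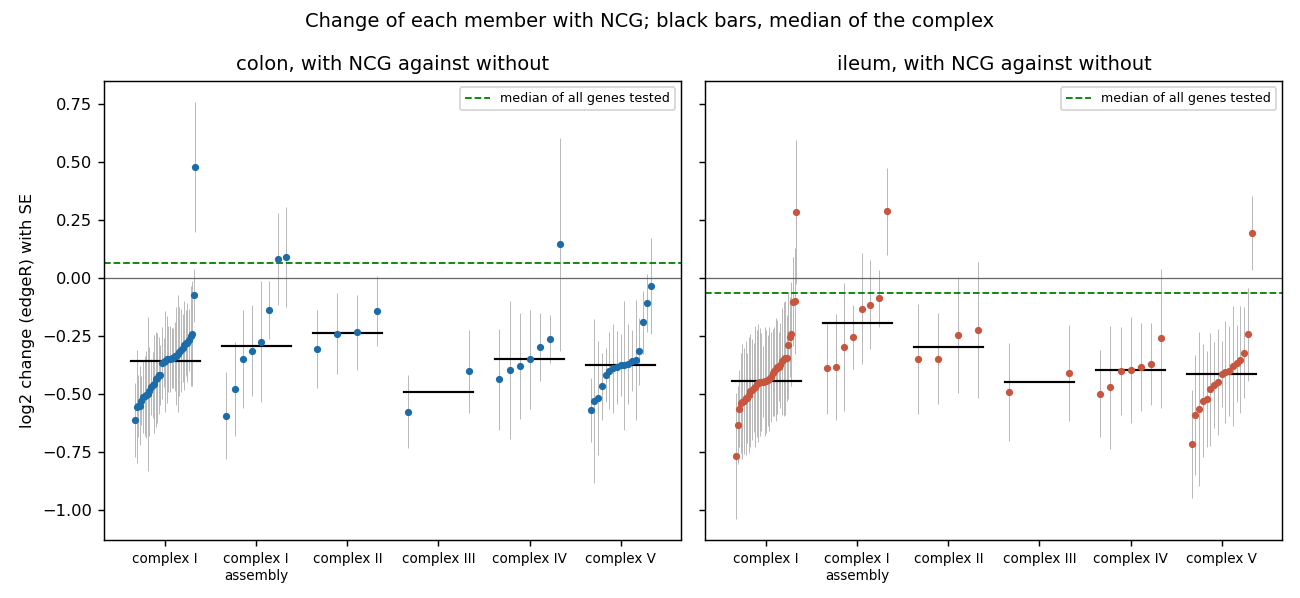
Log2 difference of each tested member, with NCG against without, from edgeR, with bars of 1 SE, in colon (left) and ileum (right), sorted within each complex. Black bars mark the median of a complex and the dashed line the median of all genes tested, and all complex medians lie below that line in both tissues.

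Values varied with gene length, and short genes as a class lay lower with NCG. Of the members, 38 are 500 to 1000 bases long and had a median of -0.37 in colon and -0.43 in ileum, against -0.20 and -0.29 for all genes of that length. The 17 members of 1000 to 2000 bases had -0.34 in colon and -0.39 in ileum, against -0.12 and -0.20. The 9 members of 2000 to 4000 bases had -0.28 in colon and -0.24 in ileum, against 0.00 and -0.11. In each length class the members' median thus lay below that of all genes of the class, which included the 9 under 500 bases (-0.44 against -0.24 in colon, -0.47 against -0.36 in ileum) and the 4 of 4000 to 8000 bases (-0.17 against 0.14, and -0.10 against 0.01). These medians are descriptions without a test, because members share libraries. What made short genes lower with NCG was not tested.

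**Figure D4:**
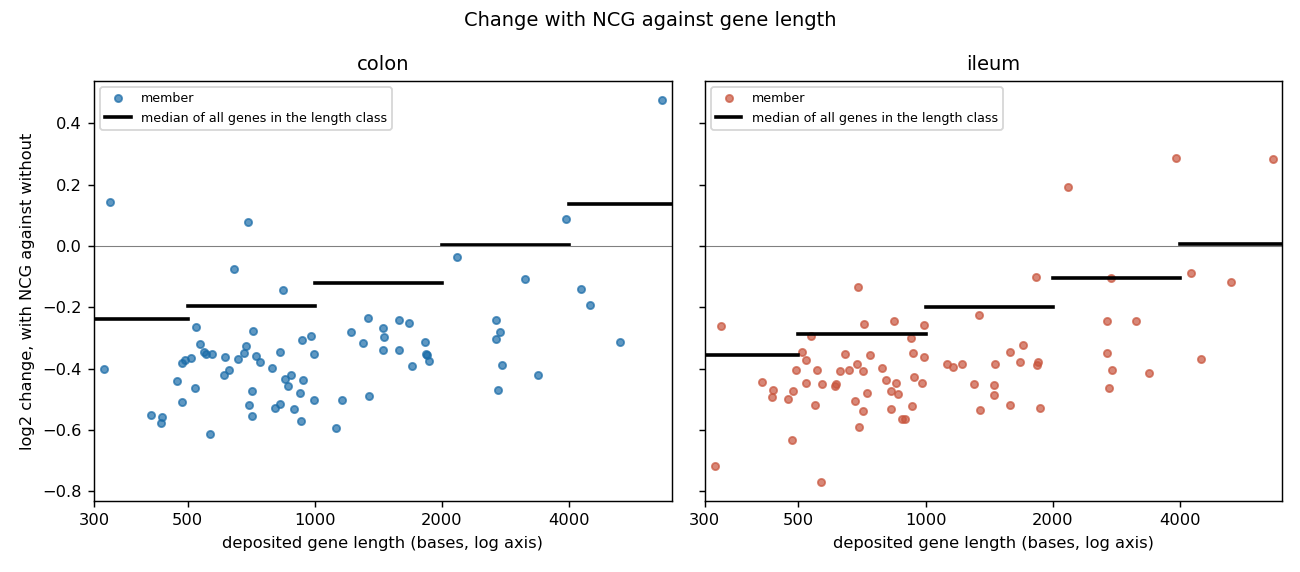
Log2 difference of each tested member with NCG against without (vertical axis) against its deposited gene length in bases on a log axis, in colon (left) and ileum (right). Black lines give the median of all tested genes in 5 length classes, the last from 4000 to 8000 bases drawn to the edge of the plot, and most members lie below the line of their class.

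Fibre was compared likewise, high against low, over both NCG levels. In colon no member was called (edgeR; 0 had an unadjusted p under 0.05, DESeq2 called 0 and limma voom 0), against 4.59% of all genes with an unadjusted p under 0.05 and 0% called (DESeq2 0.133%, voom 0%). In ileum no member was called either (edgeR; 1 had an unadjusted p under 0.05, DESeq2 called 0 and limma voom 0), against 5.26% and 0% of all genes (DESeq2 0.00682%, voom 0%). The members' median was 0.07 in colon, with 21 of 77 below 0 (49.9% of all genes), and -0.10 in ileum, with 63 of 77 below 0 (52.6%). Both signs turned with marker covariates, to -0.055 in colon and 0.11 in ileum. The ileum median was 0.076 without the FABP6-high libraries, and with 1 library left out the medians were -0.03 to 0.14 in colon (lowest without HN 3) and -0.18 to 0.027 in ileum (highest without HN 2). The fibre difference in colon minus that in ileum was called for no member (edgeR; 0 had an unadjusted p under 0.05, DESeq2 called 0 and limma voom 0), against 2.79% of all genes with an unadjusted p under 0.05 (DESeq2 called 0.0319%, voom 0%), and its median was 0.17, or 0.039 with marker covariates and -0.0049 without the FABP6-high libraries. The complex medians lay between -0.13 (assembly factors) and 0.15 (complex II) in colon and between -0.12 (complex IV) and 0.01 (assembly factors) in ileum.

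The members with the smallest p for fibre in colon were COX7A1 at -0.9976 ± 0.46 (SE, adjusted p = 0.836), NDUFA4 at -0.61 ± 0.33 (SE, adjusted p = 0.836) and NDUFA12 at 0.19 ± 0.11 (SE, adjusted p = 0.836). Those in ileum were COX7A1 at -0.85 ± 0.30 (SE, adjusted p = 0.802), ATP5S at -0.33 ± 0.16 (SE, adjusted p = 0.802) and NDUFS4 at -0.43 ± 0.23 (SE, adjusted p = 0.802). COX7A1 led both, and NDUFA12 and NDUFS4 are accessory subunits of complex I, NDUFS4 a late-assembling one of the matrix arm. The interaction of fibre and NCG was called for no member in colon (edgeR; 3 had an unadjusted p under 0.05, DESeq2 called 0 and limma voom 0), where 15% of all genes had an unadjusted p under 0.05 (DESeq2 called 0.445%, voom 0%). Its leading members there were COX7A1 at 2.75 ± 0.93 (SE, adjusted p = 0.327), NDUFA4 at 1.78 ± 0.67 (SE, adjusted p = 0.327) and NDUFB5 at 0.47 ± 0.21 (SE, adjusted p = 0.3304). In ileum it was called for none (edgeR; 0 had an unadjusted p under 0.05, DESeq2 called 0 and limma voom 0), where 4.45% of all genes had an unadjusted p under 0.05 (DESeq2 called 0.177%, voom 0%). Its median in ileum was -0.27 with 64 of 77 below 0 (52.6% of all genes), and it turned to 0.084 with marker covariates. It was -0.075 without HN 2 and LN 3, -0.071 without the FABP6-high libraries and -0.45 to -0.023 when 1 library was left out (highest without HN 2). The leading members in ileum were SDHC at -0.88 ± 0.59 (SE, adjusted p = 0.872), COX6A1 at -0.56 ± 0.38 (SE, adjusted p = 0.872) and ATP5S at -0.47 ± 0.32 (SE, adjusted p = 0.872).

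Single diets were then compared, 3 libraries against 3. Diets are shared between these comparisons, so their values are not independent. In colon no member was called by edgeR or voom in any of the 5 comparisons, and 0% of all genes passed in each with either tool. For HN against LF, 12 of 77 members had an unadjusted p under 0.05, against 8.94% of all genes, and DESeq2 called 1, against 1.41% of all genes. HN against LF gave the members a median of -0.30 with 73 below 0, against 46.1% of all genes. That median was -0.44 with marker covariates and -0.11 with the length trend removed. The leading members by p were ATP5J (-0.69, adjusted p = 0.427), NDUFB5 (-0.50, adjusted p = 0.4602) and NDUFA11 (-0.73, adjusted p = 0.469). For LN against LF, 23 of 77 members had an unadjusted p under 0.05, against 13.3% of all genes, and DESeq2 called 7, against 4.33% of all genes. LN against LF gave the members a median of -0.34 with 74 below 0, against 50% of all genes. That median was -0.53 with marker covariates and -0.19 with the length trend removed. Here NDUFB5 (-0.76, adjusted p = 0.179), NDUFAF5 (-0.99, adjusted p = 0.235) and NDUFA11 (-0.77, adjusted p = 0.2595) led. NDUFB5 had 56.3, 41.3 and 55.6 normalised FPKM in LN and 83.9, 84.8 and 92.01 in LF colon. NDUFAF5, a hydroxylase that acts in complex I assembly, had 7.57, 4.73 and 5.26 in LN and 10.6, 10.6 and 13.8 in LF colon. For both genes the LN libraries lay below the LF libraries without overlap, as they did for 34 of 77 members and 10.7% of all genes. For HN against HF, 16 of 77 members had an unadjusted p under 0.05, against 12.7% of all genes, and DESeq2 called 0, against 0.431% of all genes. HN against HF gave the members a median of -0.40 with 68 below 0, against 48.4% of all genes. That median was -0.23 with marker covariates and -0.069 with the length trend removed. NDUFC1, an accessory subunit of complex I, stood first, and the leading values were those of NDUFC1 (-0.80, adjusted p = 0.391), NDUFA1 (-0.52, adjusted p = 0.391) and UQCR10 (-0.66, adjusted p = 0.391).

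The comparisons of colon diets that differ in fibre alone held fewer such members. For HF against LF, 2 of 77 members had an unadjusted p under 0.05, against 20.4% of all genes, and DESeq2 called 1, against 6.99% of all genes. HF against LF gave the members a median of 0.10 with 29 below 0, against 50.3% of all genes. That median turned to -0.19 with marker covariates and -0.012 with the length trend removed. COX7A1 and NDUFA4 were the members under that p, followed by NDUFAF5, with values for COX7A1 (-2.37, adjusted p = 0.205), NDUFA4 (-1.50, adjusted p = 0.205) and NDUFAF5 (-0.56, adjusted p = 0.256). For HN against LN, 0 of 77 members had an unadjusted p under 0.05, against 1.01% of all genes, and DESeq2 called 0, against 0.00664% of all genes. HN against LN gave the members a median of 0.05 with 25 below 0, against 45.6% of all genes. That median ran from -0.14 to 0.16 when 1 library was left out, below 0 without HN 3 or LN 2. Values there were small, with NDUFB5 (0.27, adjusted p = 0.99986), NDUFA4L2 (0.61, adjusted p = 0.99986) and COX6C (0.21, adjusted p = 0.99986) in front, COX6C being a subunit of complex IV.

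In ileum no member was called by edgeR or voom in the same 5 comparisons, in which voom called 1.13%, 3.81%, 0%, 0% and 0.0132% of all genes in the order given here. For HN against LF, 13 of 77 members had an unadjusted p under 0.05, against 13.1% of all genes, and DESeq2 called 1, against 6.36% of all genes. HN against LF gave the members a median of -0.52 with 74 below 0, against 56.7% of all genes, and 1.88% of all genes passed. That median was -0.067 with marker covariates, -0.24 with the length trend removed and -0.25 without HN 2 and LN 3. The smallest p belonged to NDUFB1 (-0.87, adjusted p = 0.1101), ATP5J (-0.81, adjusted p = 0.264) and NDUFA11 (-1.01, adjusted p = 0.289). For LN against LF, 5 of 77 members had an unadjusted p under 0.05, against 19.4% of all genes, and DESeq2 called 1, against 11.2% of all genes. LN against LF gave the members a median of -0.28 with 69 below 0, against 53% of all genes, and 4.34% of all genes passed. That median was -0.055 with the length trend removed and -0.17 without HN 2 and LN 3. NDUFB1 (-0.72, adjusted p = 0.133), NDUFA6 (-0.56, adjusted p = 0.226) and NDUFAF8 (-0.65, adjusted p = 0.2399) led, and NDUFB1 was called without ileum HN 2 (adjusted p = 0.04704), a library outside the comparison that shares the estimate of the spread. For HN against HF, 14 of 77 members had an unadjusted p under 0.05, against 8.07% of all genes, and DESeq2 called 0, against 1.48% of all genes. HN against HF gave the members a median of -0.55 with 74 below 0, against 54% of all genes, and 0% of all genes passed. That median was -0.11 with marker covariates, -0.30 with the length trend removed and -0.25 without HN 2 and LN 3. The front members were NDUFAB1 (-0.80, adjusted p = 0.532), COX7A2 (-0.68, adjusted p = 0.536) and COX6A1 (-0.68, adjusted p = 0.555). COX7A2 had 166, 105 and 174 normalised FPKM in HN and 236, 209 and 242 in HF ileum, and the lowest value belonged to HN 2. HN lay below HF without overlap for COX7A2, as for 6 of 77 members and 5.82% of all genes.

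For HF against LF in ileum, 1 of 77 members had an unadjusted p under 0.05, against 3.56% of all genes, and DESeq2 called 0, against 0.0802% of all genes. HF against LF gave the members a median of 0.05 with 28 below 0, against 44.1% of all genes, and 0% of all genes passed. That median ran from -0.065 to 0.22 when 1 library was left out, below 0 without HF 1, HF 3 or LF 1. COX7A1 was first here too, with COX7A1 (-1.06, adjusted p = 0.99997), NDUFA4 (-0.49, adjusted p = 0.99997) and NDUFB1 (-0.31, adjusted p = 0.99997). For HN against LN, 1 of 77 members had an unadjusted p under 0.05, against 7.11% of all genes, and DESeq2 called 0, against 0.181% of all genes. HN against LN gave the members a median of -0.23 with 69 below 0, against 56.1% of all genes, and 0.00662% of all genes passed. That median turned to 0.14 with marker covariates and 0.026 without the FABP6-high libraries, and was -0.39 to 0.0099 when 1 library was left out, above 0 without HN 2. The 3 smallest p belonged to ATP5S (-0.57, adjusted p = 0.619), NDUFS4 (-0.69, adjusted p = 0.619) and COX6A1 (-0.41, adjusted p = 0.638). All comparisons of HN with another diet in ileum hold HN 2, the library with the lowest level of most members.

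COX7A1 and NDUFA4 were among the 3 members with the widest range between libraries, beside ATP5G1. COX7A1 (chromosome 6, 45519225 to 45520721), the heart and muscle form of subunit 7A of complex IV, had 137, 38.4 and 27.5 normalised FPKM in HN, 84.6, 47.6 and 23.5 in LN, 17.4, 30.9 and 23.1 in HF and 138, 166 and 63.3 in LF colon. In ileum it had 33.2, 27.5 and 26.97 in HN, 28.4, 31.03 and 72.8 in LN, 29.8, 31.9 and 25.6 in HF and 46.2, 42.2 and 93.2 in LF libraries. The high libraries were colon HN 1, LN 1, LF 1 and LF 2 and ileum LN 3 and LF 3, and single libraries of a diet differed by up to several fold. The smooth muscle markers, as mean log2 CPM, were 12.4, 9.8 and 7.0 in HN, 11.8, 10.9 and 6.7 in LN, 7.1, 7.5 and 7.5 in HF and 12.3, 12.8 and 10.9 in LF colon, and 6.5, 8.8 and 6.4 in HN, 6.4, 6.8 and 9.5 in LN, 6.8, 7.0 and 7.2 in HF and 7.3, 9.5 and 11.5 in LF ileum. In colon the 4 libraries highest in COX7A1 were also the 4 highest in these markers. In ileum LF 2 had a marker mean of 9.52 and LN 3 one of 9.48, with 42.2 and 72.8 normalised FPKM of COX7A1. Markers of other cell types were high in some of these libraries too. The adipocyte mean was 4.96 in HN 1, 6.25 in LF 1 and 6.97 in LF 2 colon and 9.05 in LN 3 ileum, that of pericyte and vessel markers was 6.23, 6.15, 6.53 and 6.47 in the same libraries, and that of skeletal muscle markers was 1.71, 1.80, 2.51 and -1.86. In colon LN 1 and ileum LF 3, also high in COX7A1, the adipocyte means were 3.45 and 2.21. Their pericyte and vessel means were 5.78 and 6.02, and their skeletal muscle means 0.63 and 1.04. Colon LN 2 and HF 3 had adipocyte means of 5.14 and 5.02, with 47.6 and 23.1 normalised FPKM of COX7A1. The part of these 3 lists was not tested. HF against LF in colon gave -2.37 ± 0.68 (SE, adjusted p = 0.205) for COX7A1, and DESeq2 gave an adjusted p of 0.01798. With smooth muscle and epithelial means as covariates the same difference was -0.43 (adjusted p = 0.774). The smooth muscle means of the HF colon libraries lay below those of the LF colon libraries without overlap. In this comparison diet and smooth muscle content therefore cannot be told apart.

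NDUFA4 (chromosome 9, 80637005 to 80644067) is named for complex I but is placed in complex IV in mammals by later work. It had 136, 47.8 and 44.4 normalised FPKM in HN, 94.3, 53.8 and 40.3 in LN, 68.9, 53.7 and 54.3 in HF and 173, 217 and 105 in LF colon, and 59.3, 60.3 and 78.2 in HN, 82.6, 57.5 and 85.6 in LN, 93.2, 58.2 and 71.2 in HF and 67.99, 93.4 and 152 in LF ileum. All 3 HF colon libraries lay below all 3 LF colon libraries, as for 9 of 77 members and 18.7% of all genes, with a log2 difference of HF against LF of -1.50 ± 0.48 (SE, adjusted p = 0.205). With the marker covariates it was -0.23 (adjusted p = 0.853), in a fit with the same limit as for COX7A1. NDUFA4L2 (chromosome 5, 22540482 to 22548418), its relative that is induced by hypoxia in other systems, was 0.601 ± 0.316 in HN, 0.3895 ± 0.0931 in LN, 0.297 ± 0.0432 in HF and 0.415 ± 0.0876 in LF colon, and 0.7596 ± 0.186 in HN, 0.552 ± 0.198 in LN, 0.578 ± 0.263 in HF and 0.4705 ± 0.1199 in LF ileum. NDUFA4L2 took at most 1.59% of the summed level of the pair in any library. That share compares levels per length, and the deposited lengths are 6639 bases for NDUFA4L2 and 994 for NDUFA4, so its share of counts is larger.

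**Figure D5:**
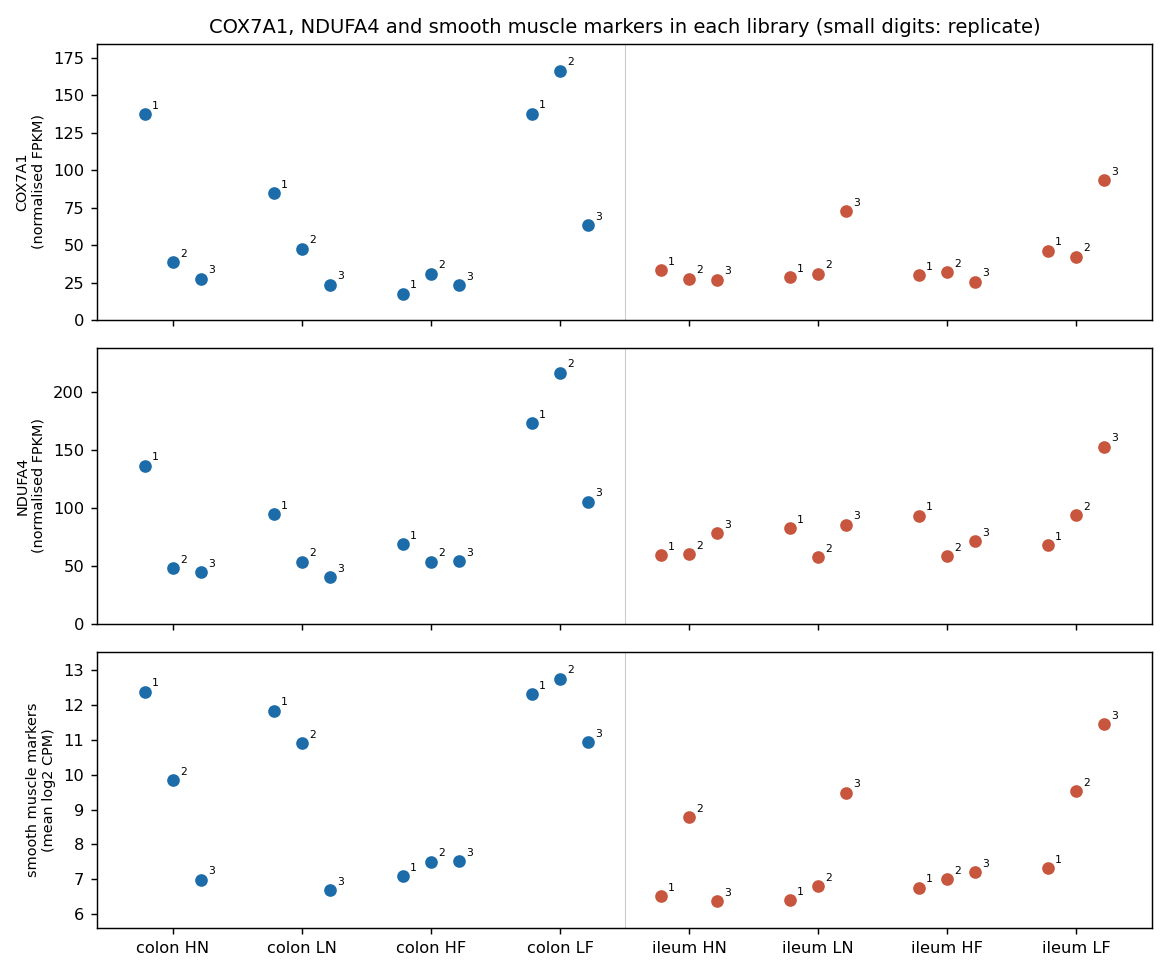
COX7A1 (top) and NDUFA4 (middle) in normalised FPKM from 0, and the mean log2 CPM of 10 smooth muscle markers (bottom, axis not from 0), in every library by group, with the replicate number beside each point. Libraries with high COX7A1, such as colon HN 1 and LF 2 and ileum LN 3 and LF 3, are also high in the markers.

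COX7A1 made up 4.896% to 51.1% of the summed level of COX7A1 and COX7A2 in colon (median 17.9%) and 9.55% to 35.4% in ileum (median 16.3%). The highest shares were in colon HN 1 (51.1%) and LF 2 (46.7%), the libraries lowest in epithelial markers, then in colon LF 1 (39.7%) and ileum LN 3 (35.4%). COX7A1 is short, at 328 bases, under the selected fragment size, and the share compares levels per length. The log2 difference of COX7A1 in colon against ileum was 0.54 ± 0.28 (SE, adjusted p = 0.155). It was -0.17 with the marker covariates.

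The table also lists 17 subunits whose symbol is a locus number or falls outside the name rule and whose own description names the subunit. The levels of several of them are given here by complex, and the complexes remain incomplete. For complex III, UQCRC1 (core protein 1, row LOC100156879) was 107 ± 45.03 in HN, 112 ± 18.5 in LN, 148 ± 32.7 in HF and 105 ± 38.6 in LF colon, and 90.3 ± 31.3 in HN, 97.1 ± 37.4 in LN, 127 ± 22.6 in HF and 117 ± 11.3 in LF ileum. UQCRC1 was highest in HF colon and lowest in HN ileum. UQCRC2 (core protein 2, row LOC100524613) was 24.8 ± 7.11 in HN, 24.1 ± 2.62 in LN, 36.04 ± 8.18 in HF and 24.5 ± 8.81 in LF colon, and 19.6 ± 5.65 in HN, 22.7 ± 5.85 in LN, 29.05 ± 7.71 in HF and 25.98 ± 1.49 in LF ileum. UQCRC2 was highest in HF colon and lowest in HN ileum. UQCRFS1, the Rieske iron-sulphur protein (row LOC100522678), was 62.3 ± 17.7 in HN, 63.2 ± 9.77 in LN, 81.4 ± 9.33 in HF and 76.00 ± 15.4 in LF colon, and 45.3 ± 13.5 in HN, 47.8 ± 16.7 in LN, 60.4 ± 13.1 in HF and 59.9 ± 6.37 in LF ileum. UQCRFS1 was highest in HF colon and lowest in HN ileum. UQCRFS1 passed in colon against ileum, with a difference of 0.41 (SE 0.14, adjusted p = 0.0348), and did not pass without the FABP6-high libraries (0.121) or without any 1 of colon HN 3, LN 1, HF 1, HF 3 and LF 3 and ileum LN 2, LN 3, HF 2, LF 1 and LF 2 (adjusted p up to 0.0691). UQCR11 had no counts in any library.

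For complex IV, COX4I1, the common form of subunit 4 (row LOC100624067), was 314 ± 177 in HN, 351 ± 37.7 in LN, 427 ± 51.7 in HF and 388 ± 67.8 in LF colon, and 251 ± 90.1 in HN, 379 ± 56.2 in LN, 409 ± 104 in HF and 399.96 ± 52.5 in LF ileum. COX4I1 was highest in HF colon and lowest in HN ileum. COX4I2, the form linked to lung and hypoxia (row LOC110257420), was 3.87 ± 0.612 in HN, 3.39 ± 0.271 in LN, 2.72 ± 0.5602 in HF and 5.59 ± 2.87 in LF colon, and 4.24 ± 2.101 in HN, 4.55 ± 2.71 in LN, 2.52 ± 0.466 in HF and 2.55 ± 0.807 in LF ileum, and took 0.524% to 3.001% of the pair in colon and 0.371% to 2.87% in ileum. COX7B (row LOC100516480) was 276 ± 77.2 in HN, 286 ± 36.8 in LN, 381 ± 71.8 in HF and 372 ± 26.8 in LF colon, and 292 ± 82.1 in HN, 404 ± 38.6 in LN, 409.6 ± 92.5 in HF and 404 ± 19.7 in LF ileum. COX7B was highest in HF ileum and lowest in HN colon. COX4I1 thus held nearly all of the summed level of subunit 4 in every library.

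COX8A, the common form of subunit 8 (row LOC100522725), was 131 ± 61.02 in HN, 131 ± 26.8 in LN, 181 ± 19.7 in HF and 165 ± 32.1 in LF colon, and 108 ± 34.8 in HN, 128 ± 26.4 in LN, 151 ± 17.8 in HF and 181 ± 13.2 in LF ileum. COX8A was highest in HF colon and lowest in HN ileum. COX7A2L, a relative of subunit 7A that links complexes III and IV in supercomplexes (row LOC100516606), was 79.1 ± 24.2 in HN, 80.01 ± 11.99 in LN, 95.1 ± 6.74 in HF and 65.1 ± 12.9 in LF colon, and 92.2 ± 37.6 in HN, 102 ± 11.8 in LN, 115 ± 28.6 in HF and 95.5 ± 8.58 in LF ileum. COX7A2L was highest in HF ileum and lowest in LF colon. COX6A2, the heart and muscle form of subunit 6A (row LOC100626250), was 7.12 ± 2.08 in HN, 7.09 ± 0.997 in LN, 6.78 ± 0.338 in HF and 6.91 ± 0.412 in LF colon, and 9.01 ± 0.942 in HN, 7.69 ± 0.868 in LN, 9.15 ± 1.604 in HF and 8.56 ± 1.85 in LF ileum. Colon against ileum gave -0.30 ± 0.11 (SE, adjusted p = 0.0404) for COX6A2, which passed in edgeR but not in voom (0.0511) or with marker covariates (0.221), and was lost without any single library except colon HN 2, HN 3 or LN 3 or ileum HN 2, LN 1, LN 3, HF 2 or LF 3 (up to 0.116). Its level per deposited length (3365 bases) is low beside that of COX6A1 (554 bases), and in colon HN 1 and LF 2 it was 4.76 and 6.58. The testis forms COX8C and COX6B2 had median counts of 0 and 1 and were not tested. For complex V, ATP5IF1, the inhibitor of ATP hydrolysis by the synthase (listed as ATPIF1), was 159 ± 31.1 in HN, 146 ± 30.5 in LN, 202 ± 44.02 in HF and 187 ± 29.5 in LF colon, and 106 ± 40.8 in HN, 131 ± 19.8 in LN, 162 ± 45.3 in HF and 169 ± 21.9 in LF ileum. ATP5IF1 was highest in HF colon and lowest in HN ileum.

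Of these outside subunits 14 were tested. With NCG none was called in colon (edgeR; 3 with an unadjusted p under 0.05, 1 called by DESeq2 and 0 by voom) or ileum (edgeR; 3 with an unadjusted p under 0.05, 0 called by DESeq2 and 0 by voom). Of all genes, 12.4% in colon and 21.5% in ileum had such a p, and DESeq2 called 3.3% and 12.1% and voom 0% and 5.1%. Of the outside subunits 12 of 14 in colon and 13 of 14 in ileum lay below 0 (43.3% and 55.8% of all genes), and their medians were -0.31 and -0.40. The exception above 0 in ileum was COX4I2, at 0.76 ± 0.37 (SE, adjusted p = 0.2704).

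Genes that work with the members were read as lists, given by counts of calls, of values below 0 and by medians. With NCG, 43.3% of all genes in colon and 55.8% in ileum lay below 0, and 12.4% and 21.5% had an unadjusted p under 0.05. By edgeR 0% and 5.85% of all genes were called, and by DESeq2 3.3% and 12.1%. The 13 subunits encoded in mitochondrial DNA, partners of the members in complexes I, III, IV and V, had these values with NCG: in colon 4 of 13 lay below 0 with a median of 0.38 and none was called (edgeR; 5 with an unadjusted p under 0.05, 2 called by DESeq2 and 0 by voom), and in ileum 3 of 13 lay below 0 with a median of 0.10. In ileum ND2, a membrane subunit of complex I, was called, with a rise of 1.05 (SE 0.25, adjusted p = 0.0343). Its normalised FPKM was 1044 to 2869.8 (median 1519.6) with NCG and 593 to 1368 (median 757) without NCG. It lost the call without the FABP6-high libraries (0.116) and without HN 2 and LN 3 (0.0733), and without any single ileum library except HN 2 or LN 2 (up to 0.0957). Mitochondrial transcripts carry short poly(A) tails and are captured by oligo(dT) less evenly, which limits comparison with nuclear genes.

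Nuclear lists of mitochondrial function lay mostly below 0, as did 43.3% of all genes in colon and 55.8% in ileum. All 13 tested proteins of the mitochondrial membranes and matrix that serve as measures of mitochondrial mass, such as VDAC1 and TOMM20, lay below 0 with NCG in both tissues, with medians of -0.38 in colon and -0.45 in ileum, and none was called in colon (edgeR; 5 with an unadjusted p under 0.05, 1 called by DESeq2 and 0 by voom) or ileum (edgeR; 5 with an unadjusted p under 0.05, 2 called by DESeq2 and 0 by voom). Of 14 citric acid cycle enzymes 12 in colon and 13 in ileum lay below 0, with medians of -0.20 and -0.34. One of them, IDH2, the mitochondrial isocitrate dehydrogenase that uses NADP, fell by 0.81 in ileum (adjusted p = 0.0415), with a normalised FPKM of 41.5 to 102 (median 84.8) with NCG and 111 to 169 (median 142) without NCG. It lost the call with the length trend removed (0.0638), with the marker covariates (0.0676) and without the FABP6-high libraries (0.155), and without any single ileum library except LN 1 or LN 3 (up to 0.1096). Of 20 mobile carriers and exchangers, such as cytochrome c and the ADP-ATP carriers, 17 in colon and 20 in ileum lay below 0, and none was called in colon (edgeR; 2 with an unadjusted p under 0.05, 0 called by DESeq2 and 0 by voom) or ileum (edgeR; 5 with an unadjusted p under 0.05, 0 called by DESeq2 and 0 by voom). Of 24 tested assembly factors outside the name rule 18 in colon and 20 in ileum lay below 0. One, LRPPRC, which stabilises mitochondrial messenger RNA, rose in ileum by 0.62 (adjusted p = 0.0295, 0.0993 with the length trend removed), and lost the call without any single ileum library except HN 3 or LN 2 (up to 0.0908). Of the 7 core subunits of complex I, themselves members, all lay below 0 in both tissues, with medians of -0.28 in colon and -0.39 in ileum and no call.

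Among 17 regulators of mitochondrial biogenesis 2 were called in ileum, both higher with NCG, while 5.85% of all genes were called there and 5.42% were called higher. GABPA (chromosome 13, 189289513 to 189327501), the DNA-binding subunit of nuclear respiratory factor 2, which is known to activate many nuclear genes of the respiratory chain, had 7.75, 12.1 and 6.72 normalised FPKM in HN, 8.68, 6.63 and 13.3 in LN, 4.37, 6.19 and 5.03 in HF and 4.37, 3.48 and 3.27 in LF ileum. All 6 libraries with NCG lay above all 6 without, which held for 4.73% of all genes. GABPA rose by 1.04 (SE 0.20, adjusted p = 0.0124) and kept the call when any single library was left out (adjusted p up to 0.0461). TFAM (chromosome 14, 92261713 to 92279731), which packages and transcribes mitochondrial DNA, had 20.4, 21.4 and 13.9 in HN, 19.01, 14.1 and 14.9 in LN, 11.4, 13.8 and 11.2 in HF and 8.96, 10.5 and 10.1 in LF ileum. For TFAM too all 6 libraries with NCG lay above all 6 without. It rose by 0.63 (SE 0.14, adjusted p = 0.0285) and lost the call without any single library except HN 3, LN 2, LN 3 or HF 2 (adjusted p up to 0.0896), and without the FABP6-high libraries (0.1002). In colon they had 0.65 ± 0.29 (SE, adjusted p = 0.4002) for GABPA and 0.33 ± 0.21 (SE, adjusted p = 0.538) for TFAM. GABPA is 5389 bases long in the table and TFAM 1716, and all genes of 4000 to 8000 bases and of 1000 to 2000 bases had medians of 0.01 and -0.20 with NCG in ileum. ATP5J, which shares bases with GABPA on the opposite strand, had -0.52 ± 0.21 (SE, adjusted p = 0.182) in ileum.

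In colon against ileum, where 28.4% of all genes were called (higher 12.5%, lower 15.9%), the same lists held these calls. Of 24 assembly factors outside the name rule 3 higher and 2 lower passed: TMEM70, which assembles the c ring of the ATP synthase, rose by 0.64 (adjusted p = 1.50e-05), ATPAF1, which assembles its catalytic head, rose by 0.37 (adjusted p = 0.000804), and ACAD9, a complex I assembly factor, fell by 0.78 (adjusted p = 0.000472). Of 20 carriers 3 higher and 1 lower passed, among them CYCS, cytochrome c, which rose by 0.70 (adjusted p = 0.0223, 0.0692 without the FABP6-high libraries), and GPD2, the mitochondrial glycerol phosphate dehydrogenase, which rose by 1.21 (adjusted p = 0.00192). Of 17 regulators 1 higher and 1 lower passed: PPARGC1B, a coactivator of mitochondrial biogenesis, rose by 0.75 (adjusted p = 0.000696) and NRF1, nuclear respiratory factor 1, fell by 0.24 (adjusted p = 0.0211). NRF1 lost the call with marker covariates (0.145), without colon LF 1 (0.0502) and without ileum LF 1 (0.0528). None of the 13 mitochondrially encoded subunits passed (edgeR; 1 with an unadjusted p under 0.05, 0 called by DESeq2 and 0 by voom), with a median of -0.09, and 2 higher and 0 lower of the 13 mass proteins and 1 higher and 0 lower of the 14 citric acid cycle enzymes did.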

How the data were processed

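Counts per gene and FPKM per gene were deposited by the authors for 24 libraries of colon and ileum, 3 for each of 8 tissue and diet groups, as are gene lengths in bases. Per the submitters' processing notes the tools were fastp 0.22.0, HISAT2 2.1.0 and HTSeq 0.9.1 on Sscrofa11.1, and per the labels' protocols poly(A) RNA was primed at random and about 450 bp were selected before 15 cycles of PCR and paired-end sequencing. The deposited FPKM equal counts per length and per total count within a relative difference of 2.10e-07, so the counts were used and FPKM were recomputed with 1 TMM scaling. No library pair held identical values, and 3 counts correspond to 0.151 to 0.251 CPM in a library, which covers counting error only.

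Counts were tested with edgeR 4.0.16 (filterByExpr by group, TMM, quasi-likelihood F-test, R 4.3.3) on group means in 3 fits: all 24 libraries (15675 genes), ileum (15103) and colon (15075). P-values were adjusted by Benjamini-Hochberg over all genes of a fit, and a call is an adjusted p under 0.05. Alternatives were DESeq2 1.42.0, limma 3.58.1 voom, other size factors, no filter on low counts, a replicate block, removal of the trend with log length (lowess span 0.3), smooth muscle and epithelial marker means as covariates, and leaving out libraries. Tables and figures were made with Python 3.11.15, pandas 2.3.3 and matplotlib 3.10.9.

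The members and the lists were chosen with earlier results of these data known. Named were called members, otherwise the 3 members with the smallest p, the 2 highest and 2 lowest of each complex, and a fixed set of isoforms and core subunits. Other names, such as the members above 0 with NCG and the called genes of the lists, were chosen after their values were seen. Coordinates are those of the deposited annotation, and all 78 members have the same start and end in RefSeq.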

Additional observations from a re-analysis of the deposited data

How the results depend on the processing

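In brackets stands the share of all genes called in the same fit. Colon against ileum called 4 members (28.4%). It called 8 with DESeq2 (34.2%), 24 with the length trend removed (29.3%), 2 with marker covariates (19.3%), 7 without the FABP6-high ileum libraries (24.7%), 2 without colon HN 1 and LF 2 (25.3%), and 1 to 7 when 1 library was left out (22.4% to 32.9%; 7 without ileum HN 2 or LN 1, 1 without colon HF 3, colon LN 1 or ileum LN 2). By diet the count was 1 in HN (4.44%) and 1 in HF sows (4.75%) without the FABP6-high libraries. In LN sows it was 3 without these (6.54%) and 2 with marker covariates (7.81%), and 0 to 1 when 1 library was left out (1.61% to 5.57%). In LF sows it was 1 without ileum HN 2 and LN 3 (4.03%), and 0 to 1 when 1 library was left out (0.933% to 3.51%). With NCG the count was 12 with DESeq2 (3.3%) and 17 with marker covariates (9.68%) in colon, and 5 with DESeq2 (12.1%), 1 with voom (5.1%) and 0 to 1 with 1 library left out (3.33% to 6.24%) in ileum. For LN against LF it was 7 with DESeq2 (4.33%) and 6 with marker covariates (7.08%) in colon, and 1 with DESeq2 (11.2%), 2 with marker covariates (17.1%) and 0 to 1 with 1 library left out (0.863% to 4.89%) in ileum. DESeq2 called 1 for HN against LF in colon (1.41%) and ileum (6.36%) and 1 for HF against LF in colon (6.99%).

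The members' median moved by more than the spread between libraries with marker covariates: to 0.26 for the colon interaction, 0.084 for the ileum interaction, -0.19 for HF against LF in colon, and in ileum -0.067 for HN against LF, -0.11 for HN against HF and 0.14 for HN against LN. With the length trend removed it moved to -0.13 for NCG and -0.069 for HN against HF in colon. Signs turned for uncalled members. In ileum NCG these were, with marker covariates, COX7A1 (0.11), NDUFA4 (0.082), NDUFA5 (0.20), NDUFAF2 (0.14), NDUFB5 (0.014), NDUFS1 (0.075), NDUFS4 (0.37), SDHB (0.13) and SDHC (0.28), with the length trend removed COX7A1 (0.14), NDUFAF2 (0.17) and NDUFS4 (0.062), and without HN 2 and LN 3 NDUFA5 (0.046) and SDHC (0.026). In colon NCG COX7A1 turned to -0.083 (block), -0.078 (marker covariates), -0.24 (without HN 1 and LF 2) and -0.065 (voom), NDUFAF2 to -0.12 without HN 1 and LF 2, and ATP5S and SDHB to 0.098 and 0.12 with the length trend removed. With 1 library left out the values ran over -0.38 to 0.33 (COX7A1), -0.048 to 0.17 (NDUFAF2), -0.034 to 0.22 (NDUFAF7) and -0.19 to 0.078 (ATP5S) in colon and -0.27 to 0.0069 (NDUFS4) in ileum. Marker covariates also turned COX7A1 in colon against ileum (-0.17), and in ileum NDUFA4 and NDUFS4 for fibre (0.14 and 0.018) and NDUFA4 for HF against LF (0.11). The causes were not tested.

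184 counts of calls and 198 medians under the settings that left out no single library stayed within 1.5 times the count or within the spread. Staying within the spread between libraries does not exclude a change of sign. The fibre medians of both tissues stayed within it and turned sign with marker covariates. Replicate numbers are shared between groups in the labels, but samples with 1 number did not deviate together (median correlation 0.05 over 12 pairs of colon and ileum), so no pairing was assumed. With the number as a block, colon against ileum called 7 members (19.1%), TFAM and IDH2 lost the call for NCG in ileum (adjusted p = 0.0622 and 0.0913), and the members' median with NCG was -0.36 in colon and -0.42 in ileum. The settings that leave out colon HN 1 and LF 2 or ileum HN 2 and LN 3 were chosen after seeing the data. The root of the common dispersion, a measure of spread shared by all genes of a fit, came to 0.472 for colon and 0.461 for ileum libraries. A member's SE for NCG ran from 0.10 to 0.46 (median 0.17) in colon and from 0.12 to 0.33 (median 0.22) in ileum on the log2 scale.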
